A study of Mus musculus with 6 samples.

Results

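The regions described here are open-chromatin regions at the start sites of noncoding transcripts, measured by ATAC-seq in mouse cells of the fetal liver that the MLL-ENL oncogene had transformed. In ATAC-seq the Tn5 transposase cuts open DNA, so that the reads over a region measure how accessible it is. The authors' deposited table lists 10016 regions whose accessibility differed between WT and dKO cells, and only regions that passed their threshold are in it. A listed region was taken as a member when its nearer edge lay within 1 kb of the start of a transcript that is not protein-coding in the GENCODE M21 annotation (mm10) and further than 1 kb from every protein-coding start. This rule found 696 members of the 10016 listed regions. Of these, 429 lay at noncoding genes and 267 lay only at noncoding transcripts, such as retained introns, of genes that also make a protein.

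All groups were MLL-ENL–transformed fetal liver cells grown with interleukin 3, a cytokine on which these myeloid progenitor-like cells depend. The WT libraries came from cells with intact floxed alleles of Cebpa and Cebpb, and their labels name no vector. In the dKO libraries Cebpa and Cebpb were both deleted, and the cells carried a vector with GFP. The third group, dKO-LAP*, had lost both genes and expressed the LAP* isoform of C/EBPβ. Its values were not analysed here, because the table has columns for WT and dKO only. Each group had 2 libraries, so 4 libraries lie behind the values below. The dKO lines were rare clones that survived the failing growth and widespread death of doubly deleted cells. Clone, vector and genotype therefore cannot be told apart in this comparison. The paper also reports strong expression of C/EBPε, another member of the family, in every recovered dKO clone, so dKO cells are not without C/EBP factors.

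Each region has a log2 group mean of normalised reads (read concentration) for WT and for dKO, and no value per library. The difference between the group means is given as dKO minus WT on the log2 scale, and a fold is that difference on the linear scale. The group means come without a standard deviation, and the spread between libraries is not shown. The p-values of the authors' own comparison were not used, so no test stands beside the values below. Whether sampled cells carried the marker genes of the labelled cell type could not be checked, because the table holds no expression values. The deletion itself is visible. A region over Cebpa fell from 9.99 in WT to -0.15 in dKO, which is at least 377-fold. Over Cebpb the table lists 2 regions, which went from 8.60 to 3.37 and from 7.38 to -0.15. A log2 mean of -0.15 was the lowest value in both columns and was read as 1 read per library. Where the lower group mean was at or under 1.43, the level of 3 reads per library, the fold is given as a bound against that level. Such a bound only replaces the low mean by that level. It gives no interval for counting error, so a mean close to 1.43 is hardly bounded.

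Noncoding transcripts start at promoters that carry open chromatin like those of coding genes. Long noncoding RNAs (lncRNAs) are called lincRNAs when they lie between coding genes and antisense RNAs when they run opposite to one, and some of them act on the chromatin of neighbouring genes. MicroRNAs (miRNAs) are cut from longer precursors and repress messenger RNAs through a short seed, while small nuclear RNAs (snRNAs) build the spliceosome and small nucleolar RNAs (snoRNAs) guide RNA modification. Pseudogenes are copies of genes that have mostly lost their coding function. The transcription factors deleted here, C/EBPα and C/EBPβ, bind DNA as dimers and drive myeloid differentiation together with PU.1, RUNX1 and AP-1 factors.

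The central 200 bp of the regions with the largest changes at lincRNA and antisense starts show what these elements look like at the level of sequence. Here and below, regions were ranked after group means under 3 reads per library had been set to that level. They were read from the plus strand of GRCm38.p6, the assembly behind mm10. Capitals mark matches, on either strand, to a C/EBP motif (TTACNNAA or TTGCNNAA), an AP-1 motif (TGACTCA or TGAGTCA), a PU.1 motif (GAGGAAGT) or a RUNX motif (AACCACA). The AP-1 letters are one site read from its opposite strands. Of the 10 such windows considered here, 4 belonged to regions lower in dKO and 6 to regions higher in dKO. The first 3 sequences below were lower in dKO and the other 4 were higher.
Gm26744 (chr16:21845874-21846073): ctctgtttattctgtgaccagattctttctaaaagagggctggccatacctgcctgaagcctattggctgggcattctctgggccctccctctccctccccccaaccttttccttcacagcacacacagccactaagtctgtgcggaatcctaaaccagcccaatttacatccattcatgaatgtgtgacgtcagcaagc
Gm47990 (chr13:38320453-38320652): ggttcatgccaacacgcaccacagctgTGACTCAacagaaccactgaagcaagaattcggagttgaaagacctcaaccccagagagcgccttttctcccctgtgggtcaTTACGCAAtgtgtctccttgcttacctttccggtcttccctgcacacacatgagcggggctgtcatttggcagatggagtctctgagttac
Airn (chr17:12741326-12741525): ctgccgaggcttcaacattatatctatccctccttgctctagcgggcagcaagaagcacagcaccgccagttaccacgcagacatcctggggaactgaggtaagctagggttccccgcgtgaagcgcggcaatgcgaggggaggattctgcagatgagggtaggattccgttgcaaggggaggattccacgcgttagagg
AC147026.3 (chr19:17256920-17257119): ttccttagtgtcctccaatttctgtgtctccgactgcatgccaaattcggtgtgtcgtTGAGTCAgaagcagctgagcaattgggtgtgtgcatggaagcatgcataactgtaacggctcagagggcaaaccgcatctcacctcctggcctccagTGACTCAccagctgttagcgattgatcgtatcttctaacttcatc
Gm30726 (chr16:76549709-76549908): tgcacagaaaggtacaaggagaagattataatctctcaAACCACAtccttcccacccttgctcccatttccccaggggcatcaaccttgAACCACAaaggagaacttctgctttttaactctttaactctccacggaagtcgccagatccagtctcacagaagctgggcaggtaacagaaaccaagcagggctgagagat
Gm16217 (chr10:127596740-127596939): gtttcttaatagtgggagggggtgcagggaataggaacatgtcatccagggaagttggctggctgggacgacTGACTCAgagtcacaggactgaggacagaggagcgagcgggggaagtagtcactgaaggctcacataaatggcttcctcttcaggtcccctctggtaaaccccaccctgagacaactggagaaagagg
Gm13748 (chr1:64078656-64078855): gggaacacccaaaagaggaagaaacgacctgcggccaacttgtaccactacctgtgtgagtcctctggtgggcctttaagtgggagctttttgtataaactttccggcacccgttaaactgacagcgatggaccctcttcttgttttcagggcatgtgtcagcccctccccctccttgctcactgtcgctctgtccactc
A C/EBP match stood in 1 of these 4 windows that were lower, at Gm47990 (TTACGCAA), beside an AP-1 match. Among the 6 windows that were higher, 2 held an AP-1 match, at AC147026.3 and Gm16217, and none held a C/EBP match. The regions at Gm16033 and 2900057B20Rik, which are also among the largest antisense falls, are not printed, and their windows held none of the 4 motifs. The absence of these letters from a window says nothing about binding of the factor.

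The next members at noncoding genes are shown because their central 200 bp holds the perfect palindrome TTGCGCAA, the C/EBP half-site joined to its mirror image. They lie at the pseudogene Rpl17-ps6, the lincRNA Gm49156 and the lncRNA Gm15201.
Rpl17-ps6 (chr13:48763946-48764145): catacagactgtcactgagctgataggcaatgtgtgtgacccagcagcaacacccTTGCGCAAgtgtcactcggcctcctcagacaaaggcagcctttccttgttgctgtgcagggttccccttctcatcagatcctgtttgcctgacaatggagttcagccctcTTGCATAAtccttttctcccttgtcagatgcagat
Gm49156 (chr14:48740992-48741191): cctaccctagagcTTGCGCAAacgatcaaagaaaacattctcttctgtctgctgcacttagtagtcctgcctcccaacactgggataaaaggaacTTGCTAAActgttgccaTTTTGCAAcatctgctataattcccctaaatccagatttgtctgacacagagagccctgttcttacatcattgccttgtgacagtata
Gm15201 (chrX:162735640-162735839): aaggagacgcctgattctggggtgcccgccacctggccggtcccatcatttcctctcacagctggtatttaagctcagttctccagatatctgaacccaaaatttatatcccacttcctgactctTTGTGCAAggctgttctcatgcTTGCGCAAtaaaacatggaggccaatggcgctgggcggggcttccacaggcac
All 6 members that held this palindrome were lower in dKO. The other 3 of them lie at noncoding transcripts of Gkap1, Nav2 and Tanc1. Over the whole table the palindrome was rare, with 34 of 10016 regions (0.339%), of which 32 were lower and 2 were higher. At Rpl17-ps6 the group mean went from 6.34 to 3.54, at Gm49156 from 5.36 to 3.98 and at Gm15201 from 7.69 to 6.86. Rpl17-ps6 and Gm15201 also held another C/EBP match in the same window, and Gm49156 held 3 matches in all.

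Among the 696 members, 422 were higher and 274 were lower in dKO. The share of higher members, 60.6%, was close to that of all listed regions, of which 60.3% were higher and 39.7% lower. At least 2-fold differences were seen in 328 members upward (47.1%, beside 49.6% of listed regions) and in 237 downward (34.1%, beside 35.9%). The median difference was 1.54 for higher members and -1.72 for lower members, beside 1.58 and -1.85 over all listed regions. Protein-coding promoters in the same table had a smaller median rise of 1.16, with 55.0% of 1216 regions higher. Of the 8104 listed regions that lie at no start site, 61.0% were higher with a median rise of 1.63. The median fall was -1.64 at protein-coding promoters and -1.90 at the regions at no start site, with the members in between. The median difference over all listed regions was 0.98, and after it had been subtracted 329 members were higher and 363 were lower (47.3% higher). The listed regions as a whole are then evenly split by construction.

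The balance between directions varied with the class of transcript. Of 144 lincRNA regions 83 were higher (57.6%), of 65 antisense regions 34 (52.3%) and of 30 regions at other lncRNAs 16 (53.3%). All 3 shares lay under the 60.3% of the whole table. The share was larger for small RNAs other than miRNAs (37 of 52, 71.2%), for TEC genes, which are loci awaiting experimental evidence (24 of 33, 72.7%), and for pseudogenes (55 of 84, 65.5%). At least 2-fold higher were 36.5% of these small RNA regions, under the 49.6% of all listed regions. The same share was 54.5% for TEC genes and 54.8% for pseudogenes. Of the 18 miRNA regions 12 were higher, and of 3 regions at immune receptor segments 2 were higher. At noncoding transcripts of protein-coding genes, 159 of 267 regions were higher (59.6%). No test was made of these differences between classes.

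**Figure D1:**
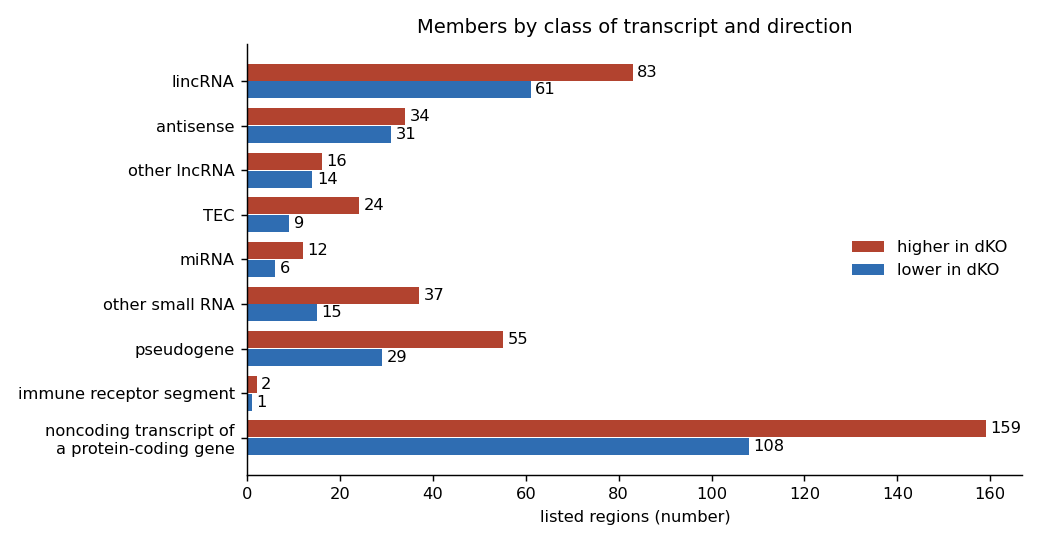
Number of member regions (horizontal axis) for each class of transcript, split into regions higher in dKO (red) and lower in dKO (blue). Antisense RNAs were nearly balanced with 34 higher and 31 lower, while other small RNAs had 37 higher and 15 lower. This contrast is of sign only, since 43.1% of antisense and 36.5% of other small RNA regions were at least 2-fold higher.

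**Figure D2:**
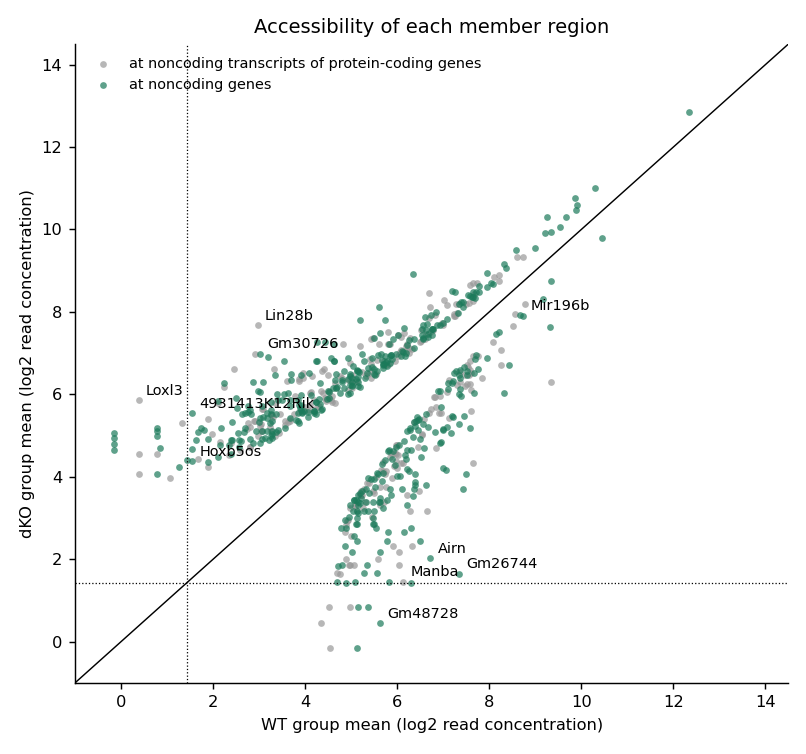
Each point is a member region, with its WT group mean on the horizontal axis and its dKO group mean on the vertical axis, both as log2 read concentration; the solid line marks equal values and the dotted lines mark 3 reads per library (1.43). Points keep away from the line because only changed regions are listed, and Gm26744, Airn and Manba stand far below it while Lin28b and Loxl3 stand far above it.

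In sequence composition the noncoding starts were unlike coding promoters. The median ratio of observed to expected CpG dinucleotides in the central 300 bp was 0.27 at noncoding genes, 0.61 at coding promoters and 0.21 at listed regions away from start sites. A window with a ratio above 0.6 and a GC content above 50% was called CpG-rich, a property of promoters that lie in CpG islands. By this definition 39 of 429 regions at noncoding genes were CpG-rich (9.09%), beside 7.82% of all listed regions. The share was 50.4% at coding promoters and 1.35% at the regions at no start site. Among the 39, 13 were higher and 26 were lower, whereas CpG-rich coding promoters were almost evenly split with 311 higher and 302 lower. Over all listed regions 399 CpG-rich regions were higher and 384 were lower. The CpG-rich regions that were lower included those over the starts of Airn, H2-Q5, Gm21989 and Gm48893 and one 214 bp from the start of Gm37844. At noncoding transcripts of coding genes the split was the other way, with 15 higher and 7 lower of 22 CpG-rich regions. Over all members 28 CpG-rich regions were higher and 33 were lower, and these splits were not tested.

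Only 257 of the 696 regions (36.9%) contained the annotated start itself, and the others lay beside it. The share was 47.7% for antisense RNAs, 40.3% for lincRNAs and 23.8% for pseudogenes. By their centre, 300 members lay between protein-coding genes, 294 in an intron of such a gene and 102 in an exon. Regions at lincRNAs lay between coding genes in 136 of 144 cases, and regions at antisense RNAs lay in an intron of a coding gene in 41 of 65. The nearest protein-coding start was a median of 29611 bp away for regions at noncoding genes. Repeat-masked bases made up a mean of 18.1% of the higher and 11.4% of the lower regions at noncoding genes, beside 16.7% and 11.8% over all listed regions. The table cannot separate a promoter from another intronic or intergenic element that lies close to a start.

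The largest fall at a lincRNA was at Gm26744, whose start lies in the region chr16:21845730-21846217 in an intron of Map3k13, a kinase gene. Its group mean was 7.34 in WT and 1.65 in dKO, a 51.6-fold lower value. The region at Gm48728 (chr10:8951135-8951576, between genes) went from 5.63 to 0.44, at least 18.4-fold lower. Its nearest coding start, that of Sash1, lies 65065 bp away, and the listed promoter region of Sash1 was also lower (5.41 in WT, 3.81 in dKO). The region at Gm47990 (chr13:38320333-38320772), 24335 bp from the start of Bmp6, a bone morphogenetic protein gene, went from 6.49 to 2.44. The WT values of the 3 were well above the 3-read level of 1.43, and in dKO Gm48728 alone was under it.

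The largest rises at lincRNAs were at AC147026.3 and Gm30726. AC147026.3 has 2 members 155 bp apart on chromosome 19 that were both low in WT. At chr19:17256397-17256724 the group mean went from 2.23 to 6.27 and at chr19:17256880-17257158 from 0.77 to 5.19, which is at least 13.5-fold higher. The region at Gm30726 (chr16:76549587-76550030) rose 15.6-fold, from 3.02 to 6.98. Its nearest coding gene is Nrip1, a nuclear receptor corepressor gene, whose start lies 175760 bp away. The promoter region of Nrip1 was higher as well, at 3.98 in WT and 7.22 in dKO.

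Among antisense RNAs one of the largest falls was at Airn, which ranked first by that rule. Airn is the imprinted RNA whose transcription across Igf2r silences the paternal copy of that gene, which encodes a receptor that clears insulin-like growth factor 2. The region chr17:12741134-12741716, in an intron of Igf2r and over the Airn start, went from 6.72 in WT to 2.02 in dKO, a 26.0-fold lower value. The window is CpG-rich, with an observed to expected ratio of 0.68. The Igf2r start lies 27948 bp away, and its promoter region was lower too, at 6.64 in WT and 2.84 in dKO. The paper reports the opposite direction for RNA, with Igf2r expression increased in dKO cells. Listed regions elsewhere in Igf2r (chr17:12722626-12723094, 7.65 in WT, 5.36 in dKO) and in Airn (chr17:12779502-12779837, 5.44 in WT, 3.85 in dKO) were lower as well. The exception within both gene bodies was chr17:12754590-12754937, which was higher in dKO (5.50 in WT, 6.83 in dKO). Allele-specific values are not in the table.

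The other antisense falls were at Gm16033, in an exon of the protease gene Adam19 (5.57 in WT, 1.67 in dKO), and at 2900057B20Rik, in an intron of Zbtb7c (5.13 in WT, -0.15 in dKO, at least 13.0-fold lower). The last of these may exceed the fall at Airn, because its dKO mean is under the 3-read level. The largest antisense rise was at Gm13748 (chr1:64078400-64079111), which overlaps an exon of Klf7, a Krüppel-like factor gene. It went from 3.19 to 6.90, or 13.1-fold. Gm16217 lies in an intron of the endocytic receptor gene Lrp1 and has 2 members 358 bp apart, which went from 1.73 to 5.19 and from 3.49 to 5.86. AC119228.1 lies in an intron of Cd274, the gene of the immune checkpoint ligand PD-L1, and its 2 members went from 2.98 to 6.08 and from 4.56 to 6.89. At each of these loci both members thus moved the same way.

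At other lncRNAs the largest fall was at C4a, a relative of the complement gene C4b that the annotation types as noncoding. Its region chr17:34808608-34808994 went from 5.82 to 1.44, 20.8-fold lower, and its central window held a C/EBP match. Reads from near-identical copies can be placed at either gene, which makes this locus uncertain. The CpG-rich start of Gm21989, in an exon of Asap2, went from 7.43 to 3.71, and the start of 2900041M22Rik went from 7.59 to 5.19. The largest rise was at 4931413K12Rik in an intron of Pitpna, a phosphatidylinositol transfer protein gene, from 1.54 to 5.54 or 16.0-fold. Gm6209 has 2 members 23758 bp apart that went from 3.54 to 6.81 and from 2.51 to 5.66, and the region at Gm21859 went from 2.14 to 4.78.

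**Figure D3:**
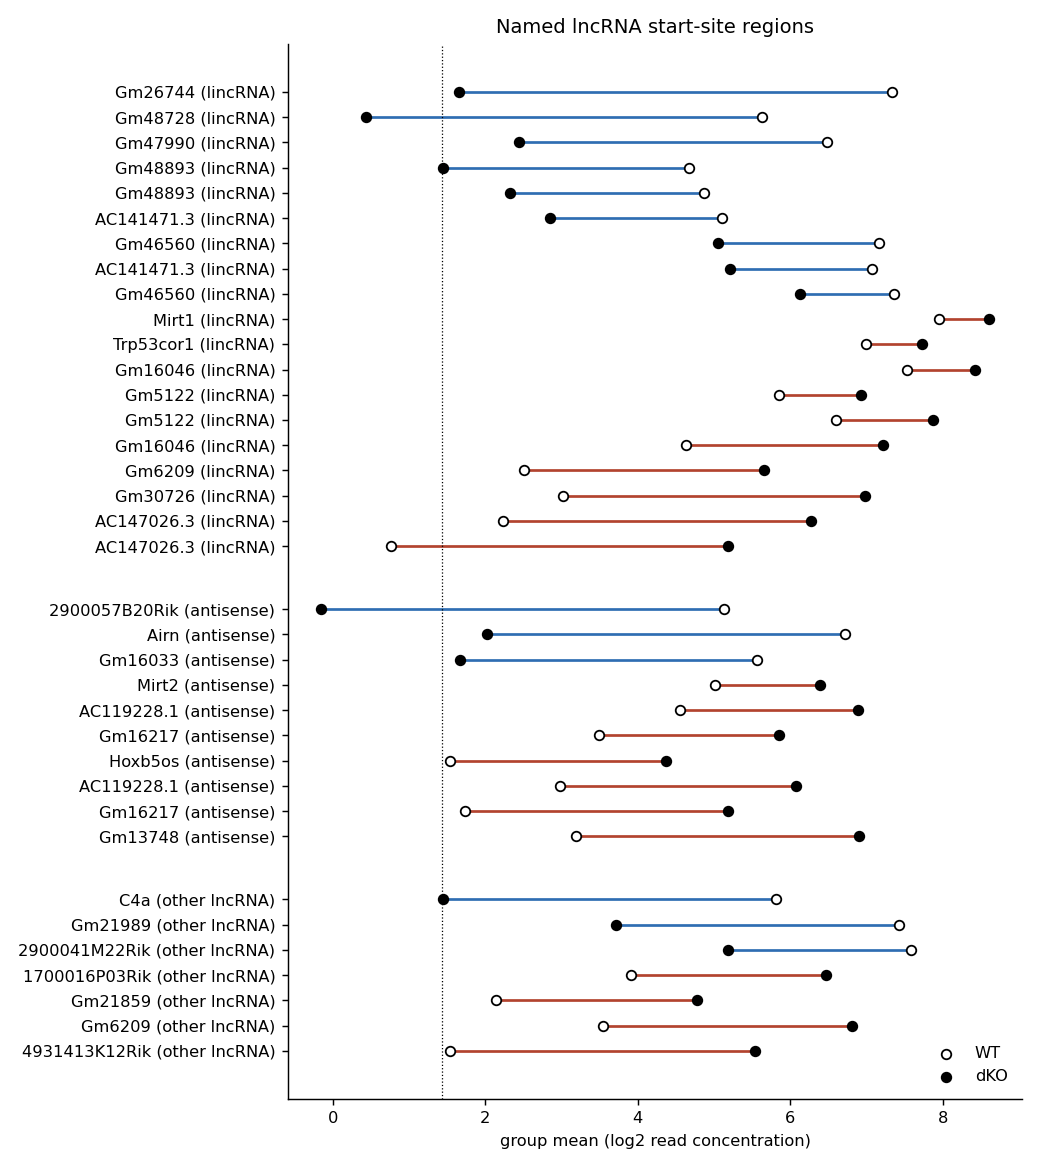
WT (open circles) and dKO (filled circles) group means, as log2 read concentration, for the named regions at lincRNA, antisense and other lncRNA starts; blue lines join values lower in dKO, red lines values higher in dKO, and the dotted line marks 3 reads per library. The longest blue line belongs to Gm26744 (7.34 to 1.65), while Mirt1 and Trp53cor1 show short red lines.

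Beside the extremes, a list of 155 miRNA and lncRNA genes with roles in blood cells, Hox clusters, imprinting or immunity was examined, of which 130 were in the annotation under the name used. Members were found at 7 of them, 5 higher and 2 lower, beside 60.3% higher over the whole table, and 7 regions are too few to set against that share. Apart from Airn these lay at Hoxb5os, Mirt1, Mirt2, Trp53cor1, Mir196b and Mir212. Hoxb5os, antisense in the HoxB cluster, had the largest rise of the 7, from 1.54 to 4.37 (7.11-fold). Mirt2, an lncRNA known to be induced by lipopolysaccharide in macrophages, went from 5.01 to 6.39. Trp53cor1, which encodes the p53-induced lincRNA-p21 next to Cdkn1a, reached 7.73 in dKO, 1.66-fold above WT, and Mirt1 went from 7.95 to 8.61. The last pair of rises was smaller than the median difference of all listed regions.

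For the miRNA class, mature sequences were taken from RefSeq (GRCm38.p6), in which 8 of the 18 miRNA members found an entry, and with Mir212 this gave 9 loci. They gave 15 mature sequences with 15 distinct seeds, so no seed was shared. Sequences are shown for 4 loci, Mir196b and Mir212 from the list and Mir6391 and Mir7094-1 as the largest rises with an entry, with the seed (bases 2 to 8) in capitals.
mmu-miR-196b-3p (chr6:52230094-52230115, minus strand): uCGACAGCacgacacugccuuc
mmu-miR-196b-5p (chr6:52230129-52230150, minus strand): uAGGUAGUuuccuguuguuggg
mmu-miR-212-5p (chr11:75173403-75173425, plus strand): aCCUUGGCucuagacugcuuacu
mmu-miR-212-3p (chr11:75173443-75173464, plus strand): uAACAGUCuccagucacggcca
mmu-miR-6391 (chr14:118592376-118592396, minus strand): uGAGGCACgggaggacaaugu
mmu-miR-7094-3p (chr12:114469408-114469428, minus strand): uACUCUGCuguucucuccaca
mmu-miR-7094-1-5p (chr12:114469444-114469466, minus strand): uCUGAAGAggauacagggucuga
miR-196b, which is encoded in the HoxA cluster beside Hoxa9 and is a known target of MLL fusion proteins, had the highest WT group mean of the class. Its CpG-rich region chr6:52230435-52230912, in an intron annotated for Hoxa9, went from 8.73 in WT to 7.91 in dKO (1.77-fold lower). The region upstream of Mir212 (chr11:75172293-75172568), at the start of the lncRNA 1700016P03Rik and 2774 bp from the tumour suppressor gene Hic1, went from 3.91 to 6.47 (5.90-fold higher). The promoter region of Hic1 moved the same way, from 7.28 to 8.04. Mir6391 lies in an intron of Abcc4, and its region went from 3.91 to 5.74, while the region at Mir7094-1 went from 2.70 to 5.19.

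The remaining miRNA members lay partly at named loci, such as Mir3092 and Mir3100, and partly at predicted loci with a Gm name. The region at Gm25250 (chr9:77576350-77576935) had the largest fall of the class, from 5.27 to 1.66, and the region at Gm22696 had the largest rise, from 1.26 to 4.24 (at least 7.01-fold). Gm22175 and Gm24022 lie in the immunoglobulin heavy chain locus between Ighm and the joining segments, where B cells rearrange and switch their antibody genes. Their regions chr12:113425242-113425585 and chr12:113424308-113425165 went from 6.15 to 2.66 and from 6.38 to 3.86. A member beside the joining segment Ighj4, chr12:113427383-113427680, was lower too, at 6.82 in WT and 5.09 in dKO. Of the Gm24022 region 95.8% was repeat-masked, so the placing of its reads is less certain than elsewhere.

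Of the regions at snRNA genes 21 of 27 were higher (77.8%, beside 60.3% over the table). Only 10 of the 27 were at least 2-fold higher (37.0%, beside 49.6% over the table). Their median rise was 0.93, beside 1.58 for all higher listed regions. Higher regions numbered 6 of 11 at snoRNAs, 7 of 10 at misc_RNAs and 3 of 4 at rRNA genes, counts too small to rank the types. These snRNA regions were also wide, with a median of 706 bp beside 400 bp over the table. The 6 that had a WT group mean of at least 9 were all higher, by 0.52 to 1.06, beside a median difference of 0.98 over the table. They include Rnu1a1 (9.53 in WT, 10.05 in dKO) and Rnu5g (9.89 in WT, 10.48 in dKO), genes for the U1 and U5 snRNAs of the spliceosome. A group of snRNA annotations lies within the stefin A cluster on chromosome 16, whose genes encode inhibitors of cathepsin proteases. Their regions went from 4.25 to 7.28 at Gm23306, from 4.44 to 7.27 at Gm25465 and from 3.24 to 5.31 at Gm24569. The promoter regions of the nearest coding genes Stfa1, BC100530 and 2010005H15Rik were each higher in dKO as well, by 1.29, 0.81 and 3.40. The cluster consists of close copies, between which reads can be misplaced.

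Beside Gm23306 in that cluster, the extremes among small RNAs lay at other loci. The region at the snRNA Gm24305 (chr12:54734397-54734823) went from 6.30 to 1.42, 29.2-fold lower against the 3-read level. Its dKO mean lies almost at that level, so this fold is close to the observed one and is no lower bound. Lower values were also seen at Gm25553 (6.63 in WT, 3.80 in dKO), at Gm25781 (6.36 in WT, 3.71 in dKO) and at both members of the snoRNA Gm23593 in an intron of Cryl1, with differences of -2.62 and -1.27. The rises were led by the 5S rRNA copy n-R5s28, from 0.77 to 5.12 (at least 12.9-fold), and the snRNA Gm24487, from 0.85 to 4.69 (at least 9.58-fold). Both were under the 3-read level in WT.

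At pseudogenes the largest fall was at H2-Q5, a class I histocompatibility gene copy typed as a polymorphic pseudogene. Its CpG-rich start (chr17:35393898-35394219) went from 5.36 to 0.84, at least 15.2-fold lower, and the promoter of the neighbouring class I gene H2-Q4 went from 7.73 to 6.23. The region at Rpl17-ps6 followed with 6.34 in WT and 3.54 in dKO, and that at Gm3926 with 6.99 and 4.22. The named rises were at Gm19233 (2.11 in WT, 5.83 in dKO, 13.2-fold), Gm15568 (-0.15 in WT, 5.06 in dKO, at least 12.4-fold) and Gm7614 (-0.15 in WT, 4.93 in dKO, at least 11.3-fold), and the order of bounds cannot be told. Gm17528 and Olfr1345-ps1 also stood at -0.15 in WT, with 4.80 and 4.66 in dKO. Gm10222 had the highest group means of all members, 12.33 in WT and 12.86 in dKO. Of the 1183 words of 30 bases in its region, 1131 (95.6%) occur letter for letter in the mitochondrial genome, and the part of mitochondrial reads in its values was not tested.

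Regions at TEC loci were lowest at Gm37844, where 2 members 89 bp apart in an exon of Kbtbd11 went from 6.30 to 2.76 and from 6.22 to 3.31. The region at Gm42858 went from 5.87 to 3.55 and held a C/EBP match. The largest rises were at AC124502.5, 2642 bp from the neuronal factor gene Npas4 (2.49 in WT, 5.90 in dKO), at Gm43386 (1.89 in WT, 4.92 in dKO) and at 4933436P19Rik (2.75 in WT, 5.57 in dKO). AC124502.5 and Gm43386 held an AP-1 match in the central window. Gm43386 lies 61949 bp from Il6, the gene of interleukin 6.

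There were 14 noncoding genes with 2 members, and in 13 both members had the same direction. Neighbouring listed regions mostly moved together over the whole table. Where the gap was at most 1000 bp, 9 of 10 such gene pairs and 288 of 293 neighbouring listed pairs (98.3%) had one direction. Up to the widest gap at these genes, 23758 bp, it was 13 of 14 and 2161 of 2478 (87.2%). The exception was H2-M6-ps, where regions 467 bp apart had differences of -1.25 and 1.15. Joint falls were seen at the lincRNAs Gm48893 (-2.55 and -3.23), AC141471.3 (-1.87 and -2.26) and Gm46560 (-1.23 and -2.10). Joint rises were seen at the lincRNAs Gm16046 (2.59 and 0.88) and Gm5122 (1.28 and 1.08), at the TEC locus Gm49254 (1.51 and 1.86) and at the pseudogene Gm45167 (1.18 and 1.58). Both members of Gm49254 held a C/EBP and an AP-1 match. Adjacent regions share a locus and are not independent of each other.

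Of the 267 regions at noncoding transcripts of protein-coding genes, 138 were at retained introns (80 higher, 58.0%) and 108 at processed transcripts (66 higher, 61.1%). Another 21 were at transcripts annotated for nonsense-mediated decay (13 higher, 61.9%). These shares were close to the 60.3% of all listed regions. The largest rises included Lin28b, whose protein blocks maturation of let-7 miRNAs and marks fetal blood stem cells. The wide CpG-rich region chr10:45485670-45486908, over the start of a processed transcript of Lin28b, went from 2.97 in WT to 7.67 in dKO, 26.0-fold higher. The nearest coding start of Lin28b lies 15469 bp away, and the promoter region there went from 1.07 to 5.63, and another listed region in the gene went from 0.77 to 4.93. Other large rises were at Loxl3, a lysyl oxidase gene (0.38 in WT, 5.86 in dKO, at least 21.6-fold), and at Tbc1d23 (2.46 in WT, 6.62 in dKO).

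The largest falls of this kind were at Manba, the gene of lysosomal beta-mannosidase, from 6.13 to 1.45 (25.6-fold), at Actl6a, which encodes a subunit of BAF chromatin remodelling complexes, from 6.04 to 1.86, and at Megf6, from 6.33 to 2.31. Prpsap1 went from 4.53 to -0.15, at least 8.57-fold lower. In Manba and Actl6a the region covered the start of the noncoding transcript, and in Megf6 it lay 445 bp from it. Megf6 held a PU.1 and a RUNX match, and the windows of Manba and Actl6a held none of the 4 motifs.

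Motif content differed between higher and lower members, and these shares are given as a description of the listed regions. At noncoding genes a C/EBP match was found in 47 of 166 lower regions (28.3%) and 49 of 263 higher regions (18.6%). At noncoding transcripts of coding genes the shares were 37.0% and 22.0%. The gap was wider at listed regions away from start sites (45.9% of lower, 21.3% of higher) and narrower at coding promoters (16.1% of lower, 80 of 669 higher). Over all listed regions a C/EBP match was found in 40.8% of lower and 20.1% of higher windows of the same length (28.4% of all 10016). Lower members at noncoding starts thus had a C/EBP share between that of coding promoters and that of other listed regions.

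The AP-1 motif had the opposite pattern, at members as over the whole table. It was found in 69 of 263 higher regions at noncoding genes (26.2%) and in 11 of 166 lower regions (6.63%). At noncoding transcripts of coding genes it was found in 19.5% of higher and 2.78% of lower regions, at coding promoters in 10.0% and 1.28%. Over all listed regions it was found in 26.7% of higher and 4.67% of lower windows, so the split at noncoding genes was close to that of the table. Within classes, 12 of 34 higher antisense regions (35.3%) and 9 of 24 higher TEC regions (37.5%) held it, beside 5 of 37 higher regions at other small RNAs (13.5%). A PU.1 match was found in 30 of 263 higher (11.4%) and 3 of 166 lower regions (1.81%) at noncoding genes, beside 13.1% and 3.34% of all listed regions. A RUNX match was found in 13.7% of higher and 9.04% of lower regions, beside 13.8% and 9.04% over the table. GC content, repeats and CpG content also differ between these sets, and their part in the motif shares was not tested.

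**Figure D4:**
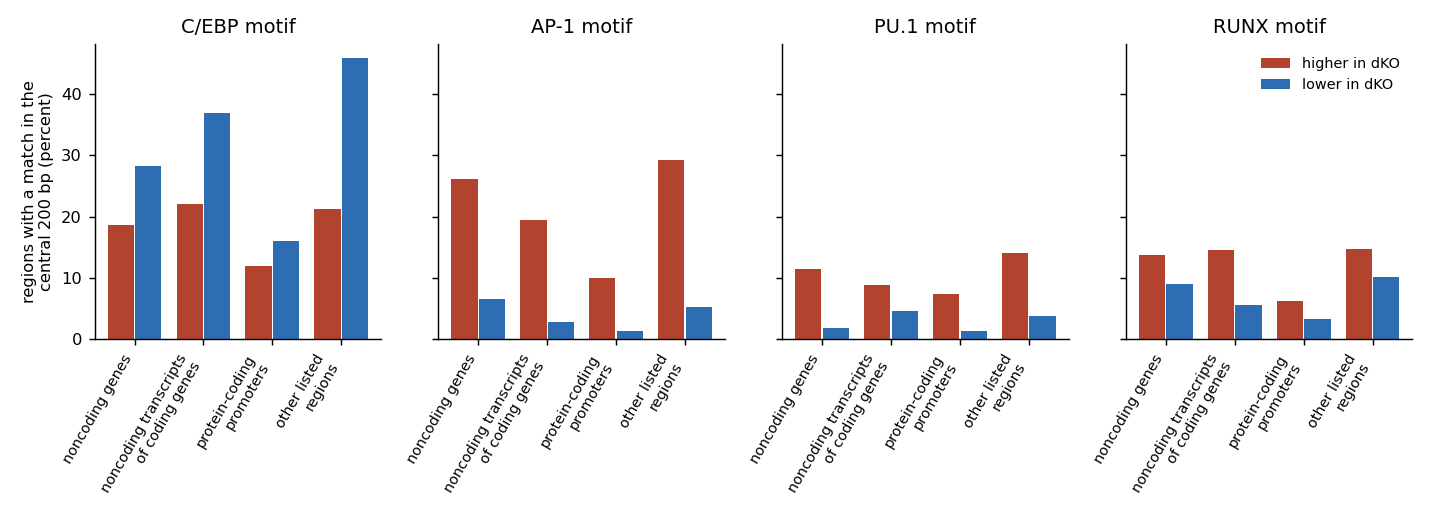
Share of regions (percent, vertical axis) with a match to each motif in the central 200 bp, for regions higher (red) and lower (blue) in dKO in 4 sets of listed regions; other listed regions are those at no start site. AP-1 matches are more frequent in the higher regions of every set (26.2% beside 6.63% at noncoding genes), and C/EBP matches in the lower ones.

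Neighbouring coding promoters were compared with the members. For 63 of the 429 regions at noncoding genes the nearest protein-coding gene had a listed promoter region of its own, and 58 of these pairs (92.1%) had the same direction, 37 higher and 21 lower. At noncoding transcripts of coding genes 38 of 43 pairs did (88.4%). For listed regions at no start site the share was 901 of 1061 (84.9%). Agreement with the nearest promoter was therefore common to all sets, and no test of the difference between them was made. The pairs are not independent, since several regions can share a promoter.

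Several of the pairs with one direction lie at genes with known roles. The region at Gm44773 (5.63 in WT, 2.17 in dKO) lies 1080 bp from the start of Ppfibp2, whose promoter region went from 7.91 to 3.65. Gm12798 (5.15 in WT, 0.84 in dKO, at least 13.2-fold lower) pairs with Ak4, an adenylate kinase gene with a promoter region that went from 5.95 to 3.43. Gm26669 (4.07 in WT, 5.44 in dKO) lies within Zfp36l1, the gene of an mRNA decay factor, whose promoter region went from 3.11 to 8.06. Gm32250 (6.78 in WT, 7.58 in dKO) is 56323 bp from the start of Cd34, a marker of blood stem and progenitor cells, whose promoter region went from 2.81 to 5.72.

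Opposite directions were seen in 5 pairs at noncoding genes. The regions at Gm15651 and 9230117E06Rik were lower (-2.31 and -2.12) while the promoter region of the ETS factor gene Etv5 was higher (0.81), and the region at 2310039L15Rik was lower (-1.82) while that of Cradd was higher (1.07). The region at Gm40323 was higher (2.03) while that of the lipoprotein receptor gene Scarb1 was lower (-0.81). The region at AC122252.1 was higher (0.95) while that of Ergic1 was lower (-3.19).

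**Figure D5:**
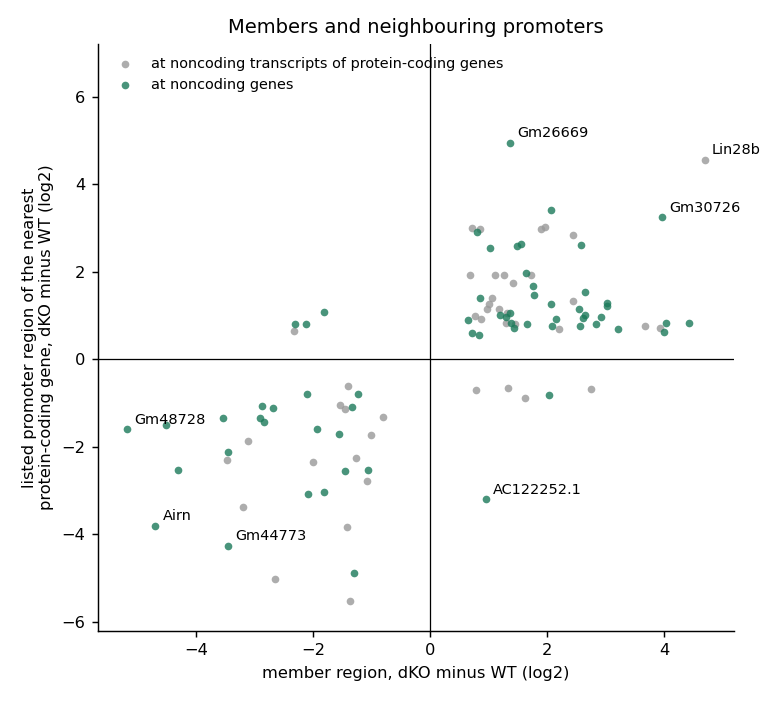
Difference (dKO minus WT, log2) at member regions on the horizontal axis against the difference at the listed promoter region of the nearest protein-coding gene on the vertical axis; green points are members at noncoding genes and grey points members at noncoding transcripts of coding genes. Most points lie in the lower left and upper right, where both moved the same way, and AC122252.1 is one of the exceptions.

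The directions were not spread evenly over the chromosomes, for members and for listed regions alike. On chromosome 10, 45 of 55 members were higher (81.8%), as were 82.0% of all 767 listed regions there. On chromosome 19 these shares were 83.9% of 31 members and 72.4% of listed regions. On chromosome 8, 11 of 31 members were higher (35.5%, beside 44.8% of listed regions) and on chromosome X 2 of 9 (22.2%, beside 45.1%). Without chromosome 10, 377 of 641 members were higher (58.8%), beside 58.4% of listed regions. The part of chromosome copy number in these clones was not tested. Of the regions named above, the rises at Lin28b, Gm16217, Gm15568, Gm19233 and 4933436P19Rik and the falls at Gm48728, Gm48893 and 2310039L15Rik lie on chromosome 10. The rises at AC147026.3, AC119228.1, AC124502.5 and Mirt1 lie on chromosome 19.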

How the data were processed

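ATAC-seq was performed by the authors on sorted cells, and reads were processed with PiGx, aligned to mm10 with Bowtie 2, turned into peaks with MACS2 and compared with DiffBind 2.14.0 at a corrected P of 0.05. Handling of duplicates, multiply mapping reads and the Tn5 offset is not given in the sources used here. Copies of a sequence can therefore share reads, and region edges may be shifted by a few bases. The authors' deposited table holds log2 group means of normalised reads for WT and dKO, without values per library. It also holds the authors' log2 fold, p-value and FDR per region, which were not used. The 2 files are identical and were read as 1 table. Sequencing depth is not in the table. With the best-fitting step size, all of the low group means (up to 3 normalised reads) in both groups lay within 0.01 (log2) of steps of whole reads. The step size was fitted to these same values. Over the sizes tried the median share was 32.2% for WT and 57.7% for dKO, so the reading as whole reads was not tested.

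Regions were assigned to start sites in GENCODE M21, giving preference to noncoding genes and then to the nearest start. Composition and motifs were computed on GRCm38.p6 with Python 3.11.15, pysam 0.24.0 and pandas 2.3.3, and the assignment and the motif search were checked on simulated regions. Shares of all members in the alternatives were set against 95% Wilson intervals. These treat regions as independent draws, which they are not, and most alternatives share members with the main set. A share inside its interval is therefore no test. The planned limma test needed values per library and was not run. Members, gene lists and motifs were chosen with earlier results of these data known. Named regions (75) were, per class of noncoding gene, the 3 largest rises and 3 largest falls with values under 3 reads per library set to that level, every region at a gene with 2 or more members, every region at a listed gene, and the 3 largest rises and falls at noncoding transcripts of coding genes. Immune receptor segments were outside the classes ranked. Regions named as examples beside neighbouring promoters, the snRNA regions at Rnu1a1, Rnu5g and in the stefin A cluster, Ighj4, Gm10222, Gm17528, Olfr1345-ps1, Prpsap1 and the palindrome regions were chosen after their values were seen.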

Additional observations from a re-analysis of the deposited data

How the results depend on the processing

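No paired analysis was possible because normalised reads were given as group means and not per library, so that the replicate block, leaving out replicates and other pseudocounts or scalings of library values were not run, and no result has an error between libraries. The number of members (696) fell to 419 when every transcript of a protein-coding gene counted as coding (260 higher, 159 lower) and to 417 with basic transcripts alone (253 higher, 164 lower). The share of higher members lay between 58.1% and 62.1% under all alternatives but one, the subtraction of the median difference, which gave 47.3% and by construction splits the listed regions evenly. Under that centring, of the 75 named regions 3 changed sign, at Gm16046 (-0.10 at one of its members), Trp53cor1 (-0.25) and Mirt1 (-0.32). Raising low means to 3 reads per library altered the difference at 11 named regions and reversed none. C/EBP matches in whole regions were found in 37.0% of higher and 46.0% of lower members, in 400 bp windows in 33.4% and 44.2%, and as palindromes in 0% and 2.19%. AP-1 matches in whole regions were found in 32.0% and 9.49%, and in 400 bp windows in 30.1% and 9.12%. The count of 0 palindromes is of 422 higher members. The alternative without chromosome 10 was chosen after seeing the data. Group means under 1.43 rest on few reads, which limits the size of the folds that start or end there.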
